A study of Mus musculus with 24 samples.

Results

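Gene expression at postnatal day (P) 7 was compared between Cux2 callosal projection neurons (Cux2 CPN) and Tle4 corticothalamic projection neurons (Tle4 CThPN). The genes compared were those with at least 10 FPKM in 1 of the 2 classes at P7, after leaving out microRNA, small nucleolar RNA and AC- or AL-numbered clone symbols, and predicted genes listed at 0 at every age of 1 class. This left 7912 of the 9767 genes in the table. FPKM are fragment numbers divided by transcript length and sequencing depth, so that levels of different genes can be set side by side.

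Callosal projection neurons of the upper cortical layers send axons through the corpus callosum to the other hemisphere. Corticothalamic neurons lie in layer 6 and project to the thalamus, where they feed back onto the nuclei that drive the cortex. At the end of the first postnatal week in mice, both classes extend axon branches and dendrites and begin to form synapses, and the transcription factors that set layer identity are still expressed.

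The study sorted both classes at 6 ages from mice labelled C57BL/6, which the methods describe as a mixed C57BL/6J background. The ages were E18.5, then P1, P3 and P7, and finally P21 with P48. Cux2 CPN came from Cux2-CreERT2:Ai14 mice and Tle4 CThPN from Tle4-2A-CreERT2:Ai14 mice, and in both a 4-HydroxyTamoxifen injection into the pregnant dam let Cre switch on the red fluorescent tdTomato protein of the Ai14 reporter. Labelled neurons of the somatosensory and motor cortex were sorted by fluorescence, with animals of both sexes pooled in each library, and 2 libraries were made for each class and age. Per the study's methods, a subset of cortical interneurons is also labelled in the Cux2-CreERT2 line, and sorting was by tdTomato alone. The study also sequenced single sorted cells to gauge this, and those data were not analysed here.

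The deposited table gives 1 FPKM value for both libraries of a group together. The P7 comparison therefore rests on 1 value a class, with no error, no replicate check and no test, and differences between the classes cannot be told apart from differences between the Cre lines or the 2 preparations. Differences are given as log2(FPKM + 1) in Cux2 CPN minus that in Tle4 CThPN. Where a pair of FPKM values is given, the first is that of Cux2 CPN and the second that of Tle4 CThPN. The pseudocount of 1 makes differences of low genes smaller. A gene is called higher in 1 class at a difference of at least 1.5, which is a ratio of 2.83 between the values of FPKM + 1. These descriptions hold for sorted bulk RNA, in which more cells of a type and more RNA per cell cannot be told apart.

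Of the 7912 genes, 263 (3.32%) were higher in Cux2 CPN and 174 (2.2%) in Tle4 CThPN. The median difference was −0.026, and 5275 genes (66.7%) differed by less than 0.5 in either direction. Predicted genes, clone symbols and small RNA symbols such as U1 and U6 aside, the 20 largest differences ran from 3.84 to 4.78 on the callosal side and from −3.80 to −7.01 on the corticothalamic side. Just inside the limit, Nos1ap had 43.3 and 14.7 FPKM and Kcnip3 had 4.88 and 15.7 FPKM. Just outside it, Dclk3 had 14.1 and 4.34 FPKM and Foxo6 had 10.6 and 31.7 FPKM.

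**Figure D1:**
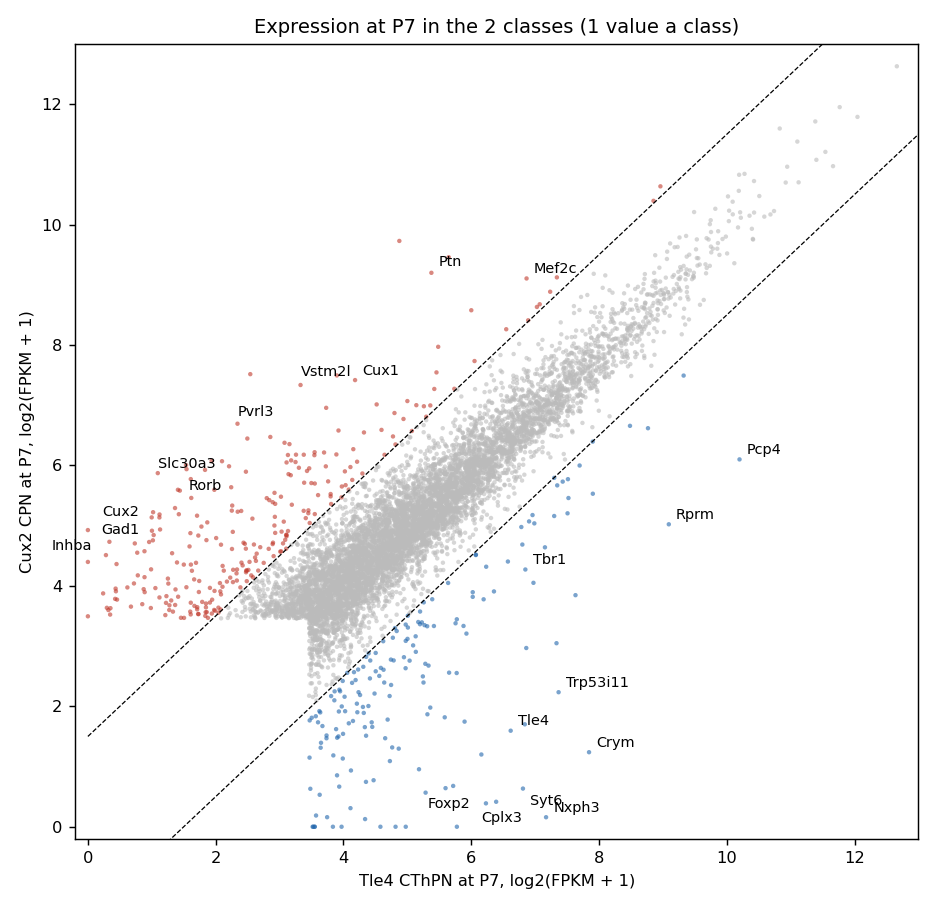
Expression of the genes compared at P7, with log2(FPKM + 1) in Tle4 CThPN on the horizontal axis and in Cux2 CPN on the vertical axis; each point is 1 gene and 2 genes fall outside the axes. Red points lie at least 1.5 above and blue points at least 1.5 below the diagonal (dashed lines), and Nxph3 and Crym lie farthest below it at high Tle4 CThPN values.

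The sequences upstream of 4 genes on both sides are shown, from among the genes with the widest class difference whose upstream stretches lie clear of annotated exons. The 3 callosal genes were chosen after the search because they hold a motif, and Rorb, Lhx2 and Gabra2, which differ more than Tac1, hold none. Inhba encodes the activin beta A subunit, Gpc5 a heparan sulfate proteoglycan of the cell surface, Tac1 the substance P precursor and Tle4 a Groucho-type corepressor. Each is the 250 bases before the gene's start in RefSeq (table on GRCm38.p6), matched exactly on NCBIM37, the build the study's alignment used, and written 5′ to 3′ on the gene's strand.
Inhba, chr13:16103434-16103683, plus strand: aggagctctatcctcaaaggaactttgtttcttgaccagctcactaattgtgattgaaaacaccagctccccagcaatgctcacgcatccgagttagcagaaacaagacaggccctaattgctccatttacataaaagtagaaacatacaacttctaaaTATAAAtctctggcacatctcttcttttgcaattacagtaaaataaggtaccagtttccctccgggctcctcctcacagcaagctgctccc
Gpc5, chr14:115491187-115491436, plus strand: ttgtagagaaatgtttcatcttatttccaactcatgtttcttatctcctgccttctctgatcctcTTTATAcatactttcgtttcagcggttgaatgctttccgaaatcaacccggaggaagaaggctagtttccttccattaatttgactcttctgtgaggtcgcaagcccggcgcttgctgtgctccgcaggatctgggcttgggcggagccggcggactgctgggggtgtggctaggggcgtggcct
Tac1, chr6:7504811-7505060, plus strand: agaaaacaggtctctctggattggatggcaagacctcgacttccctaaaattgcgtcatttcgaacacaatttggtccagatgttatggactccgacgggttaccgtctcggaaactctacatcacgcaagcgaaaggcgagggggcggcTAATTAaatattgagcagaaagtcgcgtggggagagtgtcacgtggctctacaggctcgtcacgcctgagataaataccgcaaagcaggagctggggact
Tle4, chr19:14672674-14672923, minus strand: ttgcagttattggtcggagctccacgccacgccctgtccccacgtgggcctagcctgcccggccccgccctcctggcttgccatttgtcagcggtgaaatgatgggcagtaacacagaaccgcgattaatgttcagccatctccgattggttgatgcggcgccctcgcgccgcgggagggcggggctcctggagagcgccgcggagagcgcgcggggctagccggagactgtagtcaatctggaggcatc
Capitals mark the letters of 6 short motifs searched on both strands. They are TATAAA, the core of a TATA box, in Inhba and, read on the other strand, in Gpc5, and TAATTA, the core of LIM homeobox sites, in Tac1. The matches start 91, 185 and 100 bases before the gene start in these 3 genes, and Tle4 has none.

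Promoter entries were found for 5679 of the 7896 distinct symbols, among them 179 callosal and 100 corticothalamic genes past the limit. TATAAA was in 5.48% of all entries, in 20 (11.2%) of those higher in Cux2 CPN and in 7 (7.0%) of those higher in Tle4 CThPN. TAATTA was in 1.9%, 2.79% and 5.0% of the same 3 sets, and ACAATG, a SOX core, in 5.6%, 3.91% and 8.0%. ATGCAAAT, the POU octamer, was in 1.09%, 0.559% and 1.0%, TAGGTCA, an ROR element, in 1.44%, 1.12% and 0.0%, and AGGTGTGA, a T-box site, in 0.528%, 0.0% and 1.0%. A match is only these letters within 250 bases, and no motif of the list contains another.

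The genes that gave the mouse lines their names were checked first. Cux2, a homeobox factor of upper-layer neurons, had 36.4 and 1.03 FPKM, a difference of 4.20. Tle4 had 2.02 and 97.2 FPKM, a difference of −5.02. Each gene was thus high in the class labelled by its own line and near 1 or 2 FPKM in the other. Of 30 callosal and upper-layer genes, 21 were higher in Cux2 CPN and 2 in Tle4 CThPN, with a median difference of 2.484. Of 28 genes of corticothalamic, layer 6 and subplate neurons, 20 were higher in Tle4 CThPN and 0 in Cux2 CPN, with a median of −2.646. Most listed markers that reached 10 FPKM were therefore high in the class of that label. Some, such as Foxp2 and Inhba, reached it only through that class, and Cux2 and Tle4 are themselves on the lists. Of listed callosal genes that did not reach it, Nrn1 had 2.52 and 5.38 FPKM and Wfs1 6.61 and 7.79 FPKM. Btg1, Epha3 and Pou3f2 did not reach it either and were lower in Tle4 CThPN. Sulf1 and Nr4a2 of the corticothalamic list also fell short and were lower in Cux2 CPN.

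Among transcription factors of the callosal list, Rorb, Rora, Lhx2 and Pou3f1 were at most at 2.05 FPKM in Tle4 CThPN. Rorb, a nuclear receptor of layer 4, had 47.4 and 1.66 FPKM, and its relative Rora 22.4 and 0.708 FPKM. Lhx2, a LIM homeobox factor, had 46.9 and 1.71 FPKM, and the POU factor Pou3f1 53.7 and 2.05 FPKM. Others were shared but stronger in Cux2 CPN. Cux1 had 170 and 17.1 FPKM and Mef2c, a MADS-box factor, 550 and 116 FPKM. Of the 9 listed layer 4 genes, 5 reached 10 FPKM, mostly through Cux2 CPN. Of these, Rorb, Thsd7a, Kcnh5 and Btbd3 were higher in Cux2 CPN, and Sema7a had 36.4 and 35.7 FPKM. Of the 4 that did not reach it, Tox had 1.22 and 5.32 FPKM, and Adamts2 and Whrn were also lower in Cux2 CPN. Pou3f3, Cited2, Tmtc4, Chn2, Kitl, Cdh13 and Cpne5 of the callosal list stayed within the limit, Cited2 with 22.2 FPKM in both classes. Nptx1 and Dkk3, both on the callosal list, were higher in Tle4 CThPN instead, with 0.600 and 51.6 FPKM for Nptx1 and 15.6 and 125 FPKM for Dkk3.

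Among factors of the corticothalamic list, Foxp2, a forkhead factor of layer 6, had 0.559 and 47.4 FPKM. Fezf2, which specifies subcerebral and deep-layer neurons, had 8.24 and 59.8 FPKM. Tbr1, a T-box factor of layer 6, had 18.3 and 114 FPKM, and Sox5, which times the birth of deep-layer neuron types, 23.9 and 141 FPKM. Nfia, a nuclear factor I gene, had 1.13 and 25.5 FPKM, while its relative Nfib had 28.8 and 78.0 FPKM and did not reach the limit. Layer 5 genes were mixed. Bcl11b, Etv1, Ldb2 and Pcp4 of 10 were higher in Tle4 CThPN and 0 in Cux2 CPN, with a median of −0.506, and Bcl11b had 6.04 and 29.8 FPKM. Ntsr1, a layer 6 receptor gene used as a corticothalamic marker, had 17.5 and 34.7 FPKM and stayed within the limit, as did Sla, Lmo3, Garnl3, Nfix, Sulf2 and Trpm3.

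Over whole factor families, 9 of 25 homeobox and POU genes were higher in Cux2 CPN and 4 in Tle4 CThPN, namely Otx1, Tshz2, Meis2 and Tshz3, and the median was 0.611. Meis2 had 20.2 and 94.3 FPKM. Among bHLH, zinc finger and forkhead factors the counts were 3 and 5 of 46, with a median of −0.186. Among Sox, nuclear factor I, nuclear receptor and other factors they were 8 and 7 of 44, with a median of −0.063. For comparison, 3.32% of all genes compared were past the limit on the callosal side, against 2.2% on the corticothalamic side. No list, here or elsewhere, was tested against these shares. In a short list, a count of a few genes is not by itself a result about that list. Paralogues split between the classes within a family. The corepressors Tle1, with 28.4 and 2.04 FPKM, and Tle3, with 22.8 and 0.848 FPKM, stood opposite Tle4, and Tle2 had 8.22 and 10.6 FPKM. The Ets factors Etv1 and Etv5 were both higher in Tle4 CThPN, and Etv5 had 1.46 and 28.1 FPKM.

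**Figure D2:**
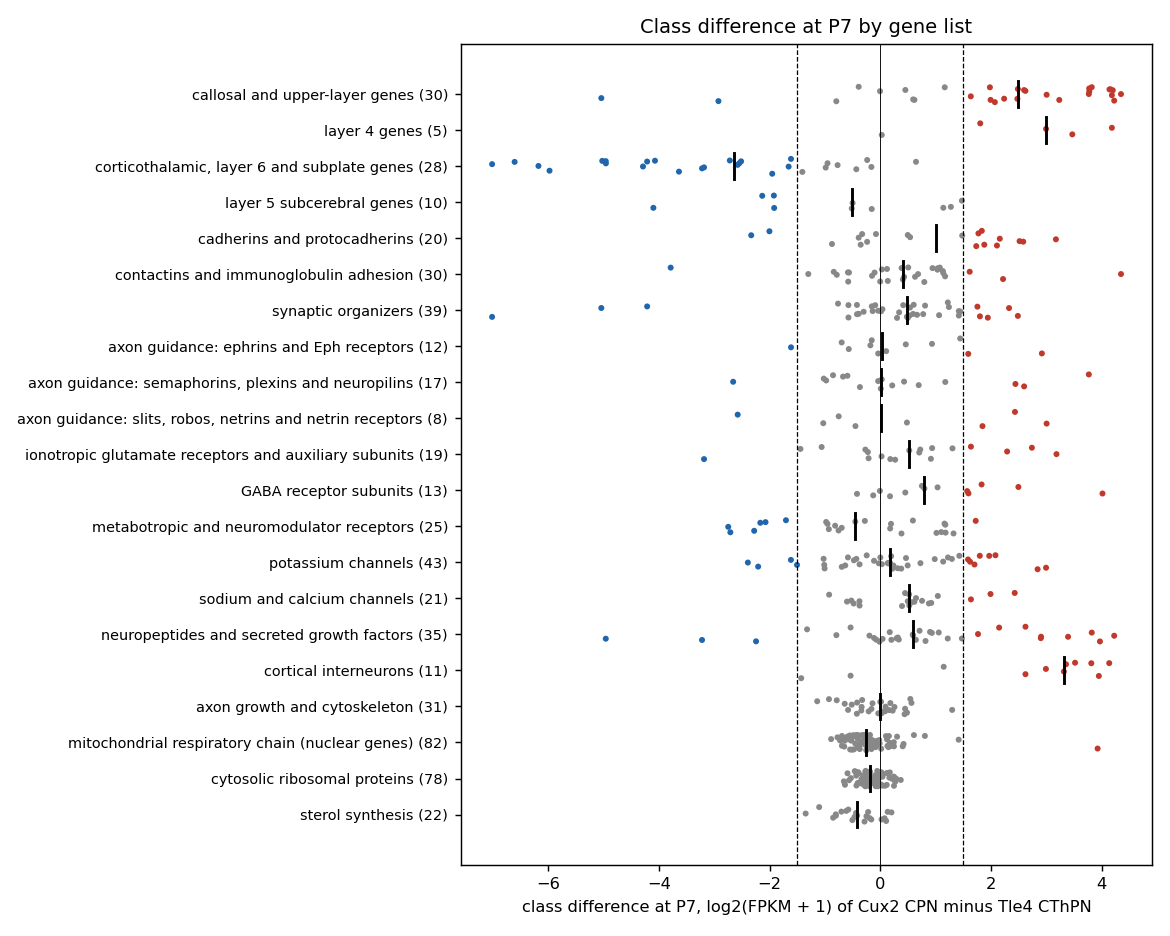
Class difference at P7, log2(FPKM + 1) in Cux2 CPN minus Tle4 CThPN, for the genes of 21 lists, with the number of genes in brackets; 1 point is 1 gene, the bar is the median and dashed lines mark 1.5. Points spread to both sides in the adhesion, synapse and receptor lists and stay within the dashed lines in the cytoskeletal, ribosomal and sterol lists and, but for Cox6a2, in the respiratory chain list.

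The largest difference on the callosal side, with the same symbols aside, was that of Slc30a3, the vesicular zinc transporter ZnT3, with 57.6 and 1.13 FPKM. This order depends on the pseudocount. With a pseudocount of 0.1, Ostn (6.145) and Inhba (6.114) differed more than Slc30a3 (5.546). Pvrl3 (nectin 3) had 102 and 4.07 FPKM, the proteoglycan Gpc5 60.3 and 1.92 FPKM, the secreted peptide Ostn 25.6 and 0.263 FPKM, and the activin subunit Inhba 21.8 and 0.216 FPKM. Fam19a2 and Fam19a1, secreted neurokine-like proteins, had 63.3 and 1.90 and 29.2 and 1.00 FPKM. The SNARE-binding Stxbp6 had 59.8 and 2.56 FPKM.

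The largest differences on the corticothalamic side were wider. Nxph3, a neurexophilin that binds alpha-neurexins, had 0.116 and 143 FPKM. Crym, a thyroid hormone binding protein, had 1.36 and 229 FPKM. The synaptotagmin Syt6 had 0.552 and 111 FPKM, and Cplx3, a complexin expressed in subplate and layer 6 neurons, 0.333 and 82.9 FPKM. Trh, the precursor of thyrotropin-releasing hormone, had 0.309 and 74.1 FPKM. Pcp4, a calmodulin regulator, was the most abundant gene among the 20, with 67.6 and 1175 FPKM, and Rprm, a cell cycle inhibitor, had 31.5 and 545 FPKM. Ctgf, a subplate gene, had 1.30 and 70.4 FPKM, and Ppp1r1b (DARPP-32) 7.27 and 160 FPKM.

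Axon guidance genes were split. Of 12 ephrin and Eph genes, 2 were higher in Cux2 CPN and 1 in Tle4 CThPN, with a median of 0.036. The receptor Epha4 had 71.5 and 8.56 FPKM, and Ephb1 12.7 and 40.9 FPKM. Of 17 semaphorin, plexin and neuropilin genes, 3 were higher in Cux2 CPN (Plxnd1, Plxdc2 and Sema3a) and 1 in Tle4 CThPN (Sema5b), with a median of 0.011. Plxdc2 entered this list by its symbol and is not itself a plexin. Plxnd1 had 25.5 and 0.943 FPKM. Of 8 slit, robo and netrin genes, Unc5d, Flrt3 and Neo1 were higher in Cux2 CPN, Slit1, a repellent ligand, was higher in Tle4 CThPN with 5.53 and 37.9 FPKM, and the median was 0.018. Each of these lists thus held genes of both directions and a median near that of all genes.

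Cadherins leaned to the callosal side. Of 20, 9 were higher in Cux2 CPN and 2 in Tle4 CThPN, with a median of 1.011. Cdh8 had 73.3 and 12.0 FPKM, Cdh6 41.9 and 6.16 FPKM and Pcdh20 10.5 and 0.273 FPKM, and in the other direction Cdh9 had 3.71 and 17.8 FPKM and Cdh18 1.48 and 11.5 FPKM. Among 30 contactins and immunoglobulin adhesion genes, 3 were higher in Cux2 CPN, namely Pvrl3, Alcam and Cntn3, and Igsf21 alone was higher in Tle4 CThPN, with 13.4 and 197 FPKM, and the median was 0.421.

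Among 39 synaptic organizers, 5 were higher in Cux2 CPN and 3 in Tle4 CThPN, with a median of 0.482. Nxph1, Lrrtm4, Odz4 and Nrxn3 were among those higher in Cux2 CPN. Nrxn3, a neurexin and thus a presynaptic receptor for many postsynaptic partners, had 35.9 and 9.93 FPKM, and Nrxn2 32.1 and 43.3 FPKM. Neurexophilins were divided by paralogue. Nxph1 had 51.5 and 9.45 FPKM, while Nxph3 and Nxph4 were nearly absent from Cux2 CPN, Nxph4 with 0.0922 and 19.2 FPKM. Of 49 vesicle and scaffold genes, 4 were higher in Cux2 CPN (Synpr, Slc17a6, Syt4 and Shank2) and Syt6 and Cplx3 in Tle4 CThPN, with a median of 0.208. Synapsins, Vamp2 and Syp, common parts of synaptic vesicles, differed by less, with 450 and 462 FPKM for Vamp2 and 389 and 442 FPKM for Syp.

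Of 19 ionotropic glutamate receptor and auxiliary subunit genes, Shisa6, Grik1, Gria1 and Cacng3 were higher in Cux2 CPN and Grik3 in Tle4 CThPN, with a median of 0.525. The AMPA receptor subunit Gria1 had 71.7 and 13.8 FPKM and Gria3 17.9 and 21.7 FPKM. Kainate receptor genes differed by paralogue, Grik1 with 19.4 and 2.06 FPKM and Grik3 with 1.77 and 24.2 FPKM. All 13 listed GABA receptor genes passed the minimum, and 5 were higher in Cux2 CPN and 0 in Tle4 CThPN, with a median of 0.799. Gabra2 had 34.2 and 1.17 FPKM, Gabra4 40.9 and 6.43 FPKM and Gabra5 108 and 29.7 FPKM.

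Receptors for modulators leaned the other way. Of 25 genes listed as metabotropic and neuromodulator receptors, 1 was higher in Cux2 CPN and 6 in Tle4 CThPN, with a median of −0.449. Adrbk1, with 60.1 and 73.0 FPKM, entered this list by its symbol and encodes a receptor kinase, not a receptor. Drd1a, the dopamine D1 receptor, had 4.64 and 36.9 FPKM, Adra1b, an adrenergic receptor, 2.33 and 20.7 FPKM, and Chrna4, a nicotinic receptor subunit, 5.77 and 31.8 FPKM. Adra2a, Grm8 and P2rx2 were the others, and Grm2, which inhibits glutamate release, was the 1 higher in Cux2 CPN, with 45.1 and 12.9 FPKM. Of 43 potassium channel genes, 8 were higher in Cux2 CPN and 4 in Tle4 CThPN, with a median of 0.176. Kcnq5, a subunit of the M current, had 36.9 and 4.28 FPKM, and the leak channel gene Kcnk1 13.1 and 64.0 FPKM. Of 21 sodium and calcium channel genes, Cacna2d1, Trpc4 and Cacng3 were higher in Cux2 CPN and 0 in Tle4 CThPN, with a median of 0.525.

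Secreted peptides and growth factors gave 9 genes higher in Cux2 CPN and 3 in Tle4 CThPN, of 35, with a median of 0.596. Ptn (pleiotrophin), a heparin-binding growth factor, was the most abundant of the 9, with 587 and 40.5 FPKM. Inhba, Tac1, Igfbp5, Fgf9, Scg2, Sst, Pdgfa and Adcyap1 were the others, and Tac1 had 25.1 and 0.663 FPKM. The list is not complete. Of peptide genes outside it, Trh, Calca and Grp were higher in Tle4 CThPN, Grp with 43.0 and 183 FPKM. The secreted Ostn, Fam19a1 and Fam19a2, also outside it, were higher in Cux2 CPN. Wnt7b, a Wnt ligand, had 4.87 and 53.7 FPKM and was, with Dkk3, 1 of 2 genes higher in Tle4 CThPN among 13 of the Wnt pathway, of which 0 were higher in Cux2 CPN and whose median was −0.262. Of 7 genes that handle retinoic acid and thyroid hormone, Thrb, a thyroid hormone receptor, was higher in Cux2 CPN with 12.3 and 2.46 FPKM. Crym, Aldh1a1 and Dhrs3 were higher in Tle4 CThPN, and Aldh1a1, which makes retinoic acid, had 0.911 and 16.4 FPKM. The median of these 7 was −0.371. Among 97 calcium-binding and second-messenger genes the counts were 9 and 9, with a median of 0.193. Camk2a had 92.6 and 19.0 FPKM and Rgs8, a regulator of G-protein signalling, 0.548 and 10.2 FPKM.

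In short lists of shared cell machinery, a count of 0 is near the share over all genes and is not a result about them. Of 31 genes for axon growth and the cytoskeleton, 0 passed the limit in either direction, with a median of 0.001. Gap43, a growth cone protein, had 1416 and 1036 FPKM. The widest in this list were Dcx, a microtubule protein of immature neurons, with 141 and 56.5 FPKM, and the neurofilament gene Nefm, with 15.4 and 35.1 FPKM. No gene passed the limit among 78 cytosolic ribosomal proteins, whose median was −0.187, 22 sterol synthesis genes, whose median was −0.426 with 17 of them below 0, or 13 genes induced by activity and dissociation, whose median was −0.351. Fos had 10.1 and 5.14 FPKM and Junb 8.76 and 23.2 FPKM. The respiratory chain list of 82 nuclear genes had a median of −0.253 and 1 gene past the limit, Cox6a2, with 38.2 and 1.57 FPKM.

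Markers of cortical interneurons were on the callosal side. Of 11 that reached 10 FPKM, 8 were higher in Cux2 CPN and 0 in Tle4 CThPN, with a median of 3.32. Gad1, which makes GABA, had 34.2 and 0.998 FPKM, Gad2 12.8 and 0.344 FPKM, Lhx6, a factor of interneurons from the medial ganglionic eminence, 27.7 and 1.04 FPKM, and Dlx1, Erbb4 and Sst were among the others. Kit, Npy and Calb2 had 11.7 and 33.2, 102 and 148, and 12.1 and 4.89 FPKM. The 16 listed interneuron markers summed to 424.6 and 208.8 FPKM, of which Npy made up 102 and 148. At E18.5 and P1 the sums were higher in Tle4 CThPN, at 626.1 and 1390 FPKM and at 718.9 and 881.2 FPKM, of which Npy made up 233 and 1334 FPKM and 415 and 816 FPKM. None of the 16 was at 0 at P7. Pvalb and Vip, which mark mature interneurons, were below 1 FPKM in both classes. Beside this, of 12 markers of glutamatergic projection neurons, 4 were higher in Cux2 CPN, among them Slc17a6, Camk2a and Nrgn, and Tbr1 in Tle4 CThPN, with a median of 0.028. Slc17a7, the vesicular glutamate transporter of cortical projection neurons, had 194 and 275 FPKM and its relative Slc17a6 27.6 and 2.31 FPKM. The interneuron genes among the differences, and others that interneurons also express, such as Sst, Erbb4, Nxph1, Tac1 and Grik1, moved with the class, and the part of labelled interneurons in them was not tested.

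**Figure D3:**
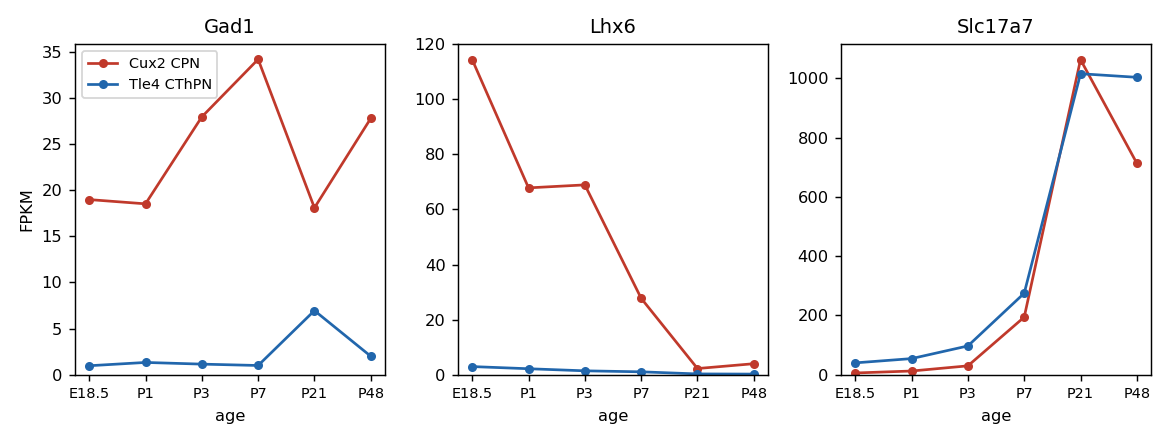
FPKM of the interneuron markers Gad1 and Lhx6 and of the projection neuron marker Slc17a7 at the 6 ages in Cux2 CPN (red) and Tle4 CThPN (blue), with ages evenly spaced and not to scale; each point is the 1 value of a group. Gad1 and Lhx6 are higher in Cux2 CPN at every age, and Slc17a7 climbs in both classes to P21.

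Markers of other cells differed by cell type. Of 6 astrocyte markers that reached the minimum, 1 was higher in Tle4 CThPN, with a median of −0.693, and the 15 listed summed to 355.6 and 547.3 FPKM, with Clu at 72.0 and 174 FPKM, and the astrocyte enzyme Aldh1l1 at 1.22 and 6.26 FPKM. The listed oligodendrocyte, microglial, endothelial and blood markers summed to at most 36.45 FPKM in either class, and the endothelial transporter gene Slco1a4 was at 0 in Cux2 CPN. Radial glia markers summed to 35.75 and 73.91 FPKM, mostly Fabp7, and of the cycling list only Pcna, with 62.5 and 82.8 FPKM, was listed. The part of these cells in the class differences was not tested.

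The same 7912 genes were followed to the other ages, with the same limit. At P3, 3.06% were higher in Cux2 CPN, against 2.34% in Tle4 CThPN, at P1 2.31% and 2.49%, and at E18.5 1.67% and 2.91%. At P21 the shares were 2.44% and 2.4%, and at P48 2.21% and 2.58%. The rule used values at P7 only, so genes high at other ages but under 10 FPKM at P7 are left out of these shares. With the rule applied at each age by itself, at E18.5 there were 180 genes on the callosal and 228 on the corticothalamic side, 213 and 207 at P1, 247 and 201 at P3, 281 and 269 at P21, and 253 and 271 at P48. P7 had the widest surplus of genes on the callosal side among the 6 ages.

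Of the 263 genes higher in Cux2 CPN at P7, 189 (71.9%) were also past the limit at P3, 139 (52.9%) at P1 and 82 (31.2%) at E18.5, and then 104 (39.5%) at P21 and 97 (36.9%) at P48. Of the 174 higher in Tle4 CThPN, the counts were 126 (72.4%) at P3, 110 (63.2%) at P1, 90 (51.7%) at E18.5, 87 (50.0%) at P21 and 82 (47.1%) at P48. All of these shares are above the shares over all genes at the same age. The 6 ages are separate sorts of the same 2 Cre lines. Between the lists that each age gave by its own rule, 158 callosal genes were common to P7 and P3, which is 60.1% of the P7 list and 64.0% of the P3 list, and 94 to P7 and P21, which is 35.7% and 33.5%.

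Genes that held their class difference at all 6 ages numbered 27 of 263 in Cux2 CPN and 45 of 174 in Tle4 CThPN. The first group holds Cux1, Cux2, Lhx2, Pou3f1, Inhba, Pvrl3 and Unc5d, and the second Tle4, Foxp2, Fezf2, Sox5, Nfia, Syt6, Nxph3 and Crym. In Cux2 CPN the values of Cux2 were 73.0 FPKM at E18.5, 36.4 at P7 and 31.0 at P48, with differences from 3.71 to 4.63. Nxph3 had 80.5, 123, 130, 143, 117 and 94.8 FPKM in Tle4 CThPN over the 6 ages, and at most 2.63 FPKM in Cux2 CPN.

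In what follows, past the limit means past it in the direction of P7. Some of these genes, such as Nxph1, Nos1ap and Adcyap1, were past it in the opposite direction at another age. The most common course was to be past the limit at P7 and at an earlier age but neither at P21 nor at P48, which 103 of the callosal and 57 of the corticothalamic genes followed. Gria1 had differences of 2.98, 2.59, 3.02 and 2.29 from E18.5 to P7 and of −0.07 and −0.33 at P21 and P48, when its values in Tle4 CThPN were 56.6 and 59.1 FPKM against 13.8 at P7. Gpc5 went up in Cux2 CPN from 1.00 to 20.0, 42.7 and 60.3 FPKM at P7 and was at 3.94 and 2.75 FPKM at P21 and P48. In Tle4 CThPN, Gsg1l, which modulates AMPA receptors, had 26.3 to 50.0 FPKM at every age, and in Cux2 CPN it was at 0.481 at P7 and at 31.9 FPKM at P21, so that its difference went from −4.72 to 0.27.

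A later course, past the limit at P7, P21 and P48 and neither at E18.5 nor at P1, was that of 34 callosal and 15 corticothalamic genes. Slc30a3 had 0.111, 0.289, 3.09, 57.6, 225 and 147 FPKM in Cux2 CPN over the 6 ages, and at most 8.29 FPKM in Tle4 CThPN. Trp53i11 had 174 FPKM at E18.5 and 3.71 at P7 in Cux2 CPN and stayed between 127 and 210 FPKM in Tle4 CThPN.

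Past the limit in this direction at P7 alone were 44 callosal and 21 corticothalamic genes. Camk2a, a kinase of mature synapses, had differences of 0.94 at P3, 2.23 at P7 and 1.44 at P21, and its level went up in both classes, with 1.39 FPKM at E18.5 and 216 at P48 in Cux2 CPN, against 4.12 and 113 FPKM. Cdkn1c, a cell cycle inhibitor, was at 0.445 FPKM in Cux2 CPN at P7 while it was still at 11.4 FPKM in Tle4 CThPN, and both were near 1 FPKM or below at P21 and P48. Pde1a had 56.2 and 8.03 FPKM at P7 and was higher in Tle4 CThPN at P21, with 107 and 208 FPKM. The rest were in none of these courses, 55 callosal and 36 corticothalamic. Rorb is 1 of them, with differences of −0.31 at E18.5, 1.88 at P1 and 4.19 at P7.

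**Figure D4:**
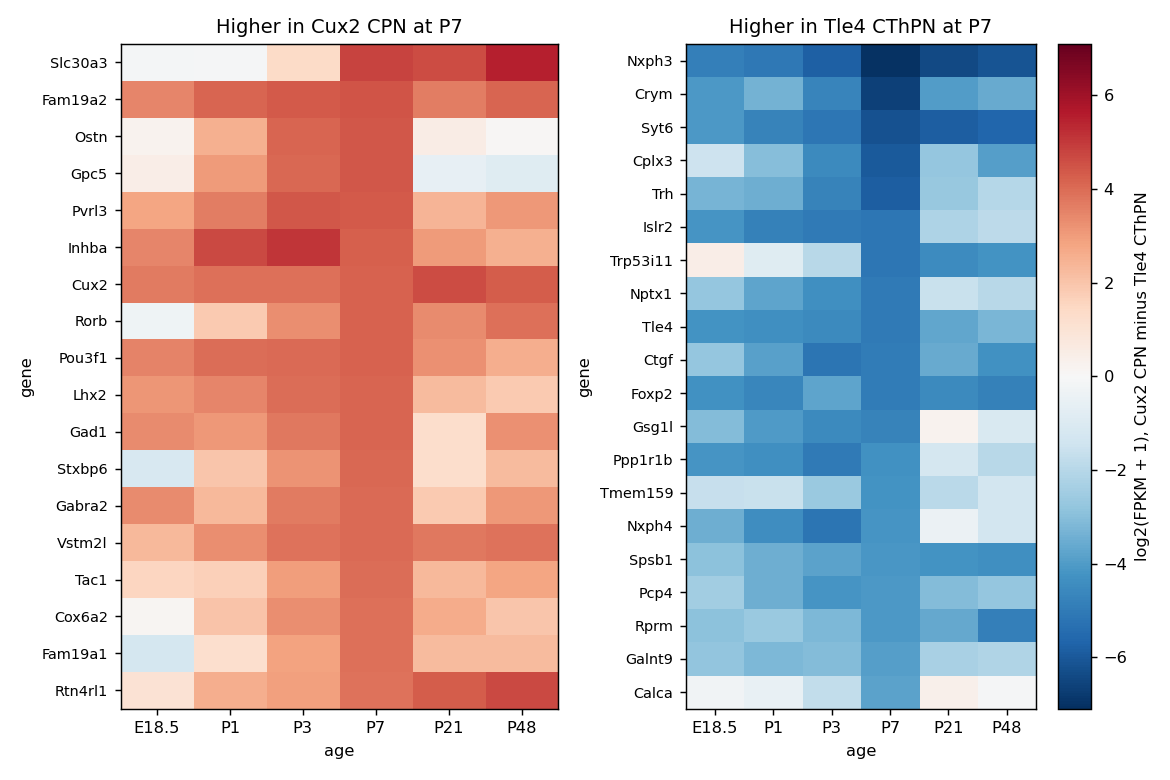
Class difference, log2(FPKM + 1) in Cux2 CPN minus Tle4 CThPN, at each of the 6 ages for genes among the 20 with the largest difference at P7 in each direction, 18 on the callosal side (left) and 20 on the corticothalamic side (right); red is higher in Cux2 CPN and blue higher in Tle4 CThPN. Slc30a3 and Trp53i11 are near 0 at E18.5 and wide at P7, and Ostn and Calca are wide at P7 and near 0 at P48.

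Genes whose P7 difference stood farthest from the mean of P3 and P21 were looked at as well. With small RNA, predicted and clone symbols left out, Pde1a led in Cux2 CPN with a gap of 2.69, followed by Gpc5 and Plcxd3. Gpr6, a receptor, had 0.732 FPKM at P3, 13.7 at P7 and 4.96 at P21 in Cux2 CPN, and at most 0.507 FPKM in Tle4 CThPN. Trpa1, a cation channel known from sensory neurons, had 5.66, 11.4 and 0.0125 FPKM at P3, P7 and P21 in Cux2 CPN. In Tle4 CThPN, Calca, the precursor of calcitonin and CGRP, led under the same exclusion with 2.80 FPKM at P3, 16.3 at P7 and 0.0780 at P21, and was at most 0.367 FPKM in Cux2 CPN. Crym went from 90.0 FPKM at P3 to 229 at P7 and 309 at P21 in Tle4 CThPN, and Cux2 CPN had 19.1 FPKM at P21 against 1.36 at P7.

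The median class difference at P7 rose with gene span, though the longest genes held differences in both directions. Genes were put in 5 equal bins by their span from first to last annotated base. The median difference was −0.225 in the bin of shortest span, then −0.146, −0.043 and 0.127, and 0.331 in the bin of longest span. In the longest bin 8.65% of genes were higher in Cux2 CPN and 3.12% in Tle4 CThPN. In the shortest the shares were 3.24% and 3.31%. The median span was 73987 bases for genes higher in Cux2 CPN, 24114 bases for those higher in Tle4 CThPN and 22403 bases for all. Medians of the shortest and the longest bin were 0.09 and 0.067 at E18.5, 0.022 and 0.082 at P1, −0.16 and 0.254 at P3, 0.06 and 0.101 at P21, and 0.028 and 0.028 at P48. The spread of medians was therefore widest at P7, and its source was not tested. With bins of exon length instead, P7 medians ran from −0.193 in the shortest bin to 0.259 in the longest. The shares higher in Cux2 CPN and in Tle4 CThPN were 3.37% and 3.37% in the shortest and 5.47% and 1.4% in the longest. Span and exon length were not separated. After centring each bin of span on its own median, 238 genes were higher in Cux2 CPN and 178 in Tle4 CThPN. Counts of several lists moved. GABA receptor genes higher in Cux2 CPN went from 5 to 3, potassium channel genes from 8 to 5, cadherins from 9 to 8, and ionotropic glutamate receptor genes, vesicle and scaffold genes and layer 4 genes each from 4 to 3. Contactins and immunoglobulin adhesion genes and sodium and calcium channel genes went from 3 to 2, and layer 5 genes from 0 to 1. Among genes higher in Tle4 CThPN, metabotropic and neuromodulator receptors went from 6 to 5, astrocyte markers from 1 to 0, and interneuron markers and ionotropic glutamate receptor genes from 0 to 1 and from 1 to 2. The median of contactins and immunoglobulin adhesion genes went from 0.421 to 0.09, that of synaptic organizers from 0.482 to 0.201, that of sodium and calcium channels from 0.525 to 0.316, that of slit, robo and netrin genes from 0.018 to −0.313, and that of metabotropic and neuromodulator receptors from −0.449 to −0.235. The medians of potassium channels (0.176 to 0.072), vesicle and scaffold genes (0.208 to 0.076), calcium-binding and second-messenger genes (0.193 to 0.094), the respiratory chain (−0.253 to −0.114) and activity-induced genes (−0.351 to −0.153) moved toward 0, and that of Wnt genes went from −0.262 to −0.462. Counts went up by 1 for homeobox and POU factors and for peptides and growth factors in Cux2 CPN (each 9 to 10), for the respiratory chain in Cux2 CPN (1 to 2), and for the corticothalamic list (20 to 21) and the Sox, nuclear factor I and nuclear receptor list (7 to 8) in Tle4 CThPN. The ribosomal median went from −0.187 to 0.026.

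**Figure D5:**
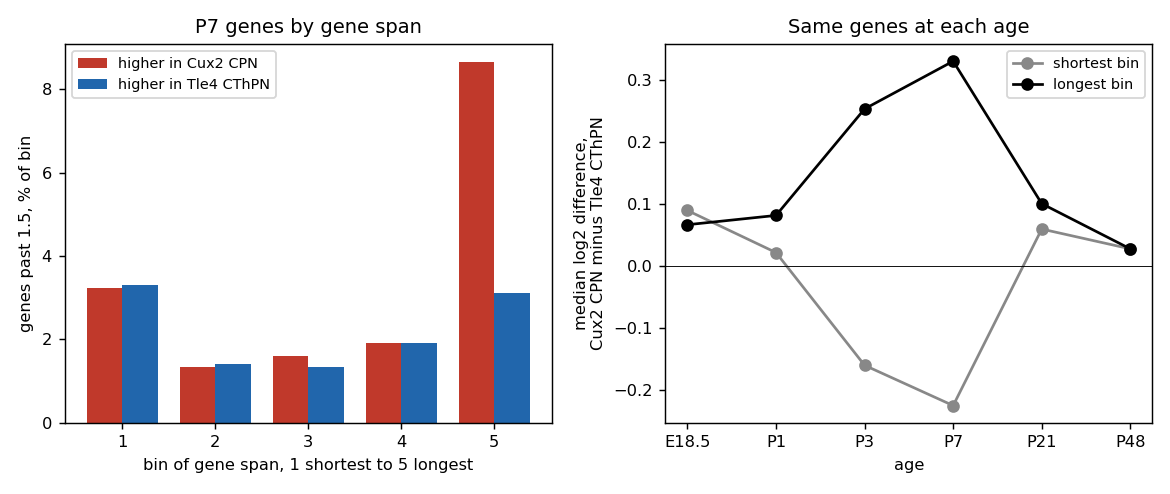
Left, percent of genes at least 1.5 higher in Cux2 CPN (red) or Tle4 CThPN (blue) at P7 in 5 bins of gene span, from 1 (shortest) to 5 (longest). Right, median class difference (log2, Cux2 CPN minus Tle4 CThPN) of the shortest and the longest bin at each age, which are farthest apart at P7, at −0.225 and 0.331.

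Reads of genes that overlap on opposite strands cannot be told apart, because the kit did not mark strand. Among genes past the limit, this touches Meg3 with Gm17639 and Dlx1 with its antisense gene Dlx1as, and the members of each pair were higher in the same class. Mitochondrial genes differed in direction, with mt-Atp8 higher in Cux2 CPN by 3.60 and the ribosomal RNA gene mt-Rnr1 higher in Tle4 CThPN, at −1.74. Short features were uncertain. The predicted gene Gm12563, with 102 bases of exon, had 490890 and 253 FPKM, and 10 genes with exons of at most 300 bases were past the limit in each direction. Of the genes compared, 30 share their symbol with another row, and 4 of these were past the limit.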

How the data were processed

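RNA was extracted from sorted tdTomato-positive neurons, amplified with the SMART-Seq v4 and Nextera XT kits and sequenced. According to the methods, the authors trimmed reads with Trimmomatic, aligned them with TopHat2 to NCBIM37 (mm9 in the submitters' processing notes) and computed FPKM with Cuffdiff, and deposited 1 FPKM value for each of 12 groups, from 24 libraries. The methods give a lower bound on reads per library. Read numbers per gene are not kept in FPKM, so the number of reads behind each value is unknown and no interval is given. Methods and labels differ on the papain concentration.

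From the FPKM, differences of log2(FPKM + 1) were computed in Python 3.11.15 with numpy 2.4.6 and pandas 2.3.3, and figures drawn with matplotlib 3.10.9. The limit was 1.5 and the minimum 10 FPKM. With 1 value per group no test was made. Symbols were placed on the GENCODE annotation of NCBIM37 (7863 genes, 7665 of them protein coding). Members and lists were chosen with earlier results of these data known. Genes named are the 20 with the largest difference each way, without predicted, clone and small RNA symbols (the same for the ranking against P3 and P21), listed genes past the limit or with the widest difference, defining markers, the 10 each way whose P7 difference stood out from P3 and P21, and Cux2 and Tle4. Other genes named, such as common vesicle, receptor and paralogue genes and those shown by age, were chosen after their values were seen. The values of some genes that these rules name are not reported here. Alternatives were a pseudocount of 0.1, a minimum of 30 FPKM, limits of 1 and 2, centring on the median, no symbol filter, and genes with exons over 300 bases only. Centring by bin of gene span was added after the values were seen.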

Additional observations from a re-analysis of the deposited data

Results flagged for a closer look

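Some genes past the limit at P7 were past it in the opposite direction at another age. With 1 value per group, the difference between ages was not tested. The values are log2 differences of FPKM + 1, Cux2 CPN minus Tle4 CThPN. Of genes higher in Cux2 CPN at P7, Nxph1 (2.33 at P7) was at −3.11 at P21 and −2.19 at P48, and its FPKM went from 51.5 to 6.08 in Cux2 CPN and from 9.45 to 60.0 in Tle4 CThPN between P7 and P21. Plcxd3 was at −3.0 and −1.57, Gabrg3 at −2.15 and −1.59, Nos1ap at −1.83 and −2.28, and Arhgdib at −1.72 and −1.78 at P21 and P48, and Mdga1 was at −1.52 at P48. Before P7, Lrrtm4 was at −2.71 at E18.5 and −1.95 at P1, Adcyap1 at −1.98 at E18.5, Pde1a at −1.88 at E18.5 and Nrgn at −1.53 at E18.5.

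Of genes higher in Tle4 CThPN at P7, Tuba1c was at 2.43 at E18.5 and 4.23 at P1, Dhrs3 at 1.6 at E18.5, Myc at 1.54 at P1 and Echdc2 at 1.67 at P48. Tuba1c had 48.6 FPKM in callosal and 1.63 in corticothalamic neurons at P1, and 11.1 and 43.6 FPKM at P3.

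The 144 symbols that were left out, mostly short RNAs, summed at P7 to 3365000 FPKM for Cux2 CPN against 9198 for Tle4 CThPN. They are outside the comparison. Among the genes compared, those with exons over 300 bases summed to 547500 and 564900 FPKM.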

How the results depend on the processing

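With 1 value per group, each alternative is a description. Of 44 counts recomputed, 26 stayed within 1.5 times the reported one, under the pseudocount of 0.1, centring on the median, no symbol filter, exons over 300 bases and centring by gene span. At a minimum of 30 FPKM, genes higher at P7 numbered 122 in Cux2 CPN and 83 in Tle4 CThPN, of which 94 and 67 were also past the limit at P3 and 54 and 50 at P21. At a limit of 1 these were 519 and 315, 351 and 225, and 206 and 153, and at a limit of 2 they were 156 and 111, 107 and 72, and 59 and 54. No paired analysis was possible because the table holds 1 value per group. Leaving out a library was not possible for the same reason. The methods give only a lower bound on reads per library, and reads per gene are unknown, so low FPKM values carry an unknown counting error.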
